A study of Homo sapiens and Mus musculus with 12 samples.

Results

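The comparison is between the unfractionated RNA (input) of the mouse melanoma line Yumm1.7 in the states that the labels call S and P, each represented by 1 sequencing library out of 12 in the series. Of the 12711 genes listed for this line, 10492 averaged 1 TPM or more over its 6 libraries and were compared. TPM is a length-corrected share of a library's transcripts. At the threshold, Zfp597 averaged 1.0002 TPM and was kept, and Zfp874b averaged 0.9994 TPM and was left out. Genes of the cell cycle and of MAPK output, 90 of 93 of which were 2-fold or more lower in S, are mostly left aside in favour of other families.

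The series profiled parental and drug-tolerant persister cells of a human and of a mouse melanoma line by sucrose gradient, taking input, monosome (the 80S peak and the fractions before it) and polysome (the bottom fractions) RNA from each. The labels do not spell out P and S, and give no drug, dose, time or passage, so the letters are used as they stand. Both Yumm1.7 states were cultured cells of 1 line with skin given as tissue, and the RNA was purified on poly-T beads before random-primed library construction. With 1 library per state there is no replicate check: no difference below has a test, and every count is a description of these libraries.

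Drug-tolerant persisters are tumour cells that survive treatment in a slow-cycling, reversible state. Yumm1.7 was derived from a mouse melanoma with mutant Braf and loss of Cdkn2a. Non-dividing cells keep up respiration, lysosomal turnover and secretion while making little new DNA and chromatin. Contractile fibres, extracellular matrix and membrane receptors are further families through which melanoma cells are known to differ from state to state.

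Differences are log2(TPM + 1) in S minus the same in P, minus the median of the 10492 genes, so that 0 stands for the median gene. That median was -0.94 before centring: the median gene had 13.5 TPM in P and 5.93 TPM in S. A few transcripts took more of the S library: the 10 highest genes held 10.9% of all listed TPM in P and 23.8% in S. Genes are counted as higher or lower where the centred difference is 2-fold or more, which held for 2422 higher genes (23.1% of those compared) and 2336 lower genes (22.3%). On the values as deposited, without centring, the split was 938 higher and 5043 lower, and any list whose centred median lies between 0 and 0.94 has a negative one. Tcirg1 (1.0003) lay just inside and Abtb2 (0.9993) just outside the upper line, Spg20 (-1.0001) just inside and Layn (-0.9994) just outside the lower one.

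The same differences were computed in the monosome and in the polysome libraries, which are other libraries of the same cells and not replicates. Of the 2422 higher genes 1480 were higher in all 3 library pairs (14.1% of genes compared), and of the 2336 lower genes 1224 were lower in all 3 (11.7%). Zeros were unevenly spread: 1581 listed genes stood at 0 in S input against 316 in P input. Of the genes compared, 126 had at least 10 TPM in P and were listed at 0 in S, and 125 of these were above 0 in the S monosome or polysome library. Genes at 0 in S input are therefore named as such, with no fold.

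The 13 mitochondrially encoded mRNAs made up 9.64% of all listed TPM in P and 19.9% in S, and a few nuclear-encoded transcripts also took a larger share in S. Ftl1, the ferritin light chain, had 8129.9, 28228 and 2005 TPM in the input, monosome and polysome libraries of P and 22315, 29414 and 8235 TPM in those of S. Tmsb10, an actin monomer binding thymosin, had 4053 TPM in P and 18389 TPM in S, and S100a6, a small calcium binding protein, had 4065 TPM in P and 16099.5 TPM in S. Actb, cytoplasmic beta actin and a customary reference gene, had 3189 TPM in P and 9108 TPM in S. All 4 were more than 2-fold higher in S input as deposited, although the Ftl1 and Tmsb10 values of P and S overlap across the 3 library types, whereas Tpt1, the translationally controlled tumour protein, had 10019 TPM in P and 2152 TPM in S. The housekeeping list split: 4 of 20 members were higher and 4 lower, from Pgk1 (-2.27) and Hprt (-2.17) to Gapdh (1.82) and Actb (2.45).

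The labelled melanoma identity was thin in both states. Mitf, the melanocyte master regulator, had 4.76 TPM in P and 0.571 TPM in S. Pmel had 0.276 TPM in P and 0 TPM in S, and Mlana had 0.0540 TPM in P and 0 TPM in S. Mlana and Pmel were above 0 in other S libraries. Mlana had 1.52 and 1.29 TPM in S monosomes and polysomes, against 0 and 0.0796 TPM in those of P. Pmel had 0 and 0.577 TPM in S monosomes and polysomes, against 0.0725 and 0.388 TPM in those of P. The other 4 melanocyte markers looked for were not analysed here. Factors of the neural crest, from which melanocytes arise, were present: Pax3 had 9.16 TPM in P and 9.16 TPM in S, Tfap2a had 30.6 TPM in P and 42.9 TPM in S, Tfap2b had 7.30 TPM in P and 22.8 TPM in S and Sox2 had 14.7 TPM in P and 35.2 TPM in S. Gpnmb, a melanosome and lysosome glycoprotein, had 249 TPM in P and 181 TPM in S. Cdkn2a had 10.5 TPM in P and 0 TPM in S, and since gene-level values do not tell which exons were read, this does not check its deletion.

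Markers of other cell types were looked up in the same libraries. Of 8 fibroblast markers 5 were listed, and their summed level was 5.66, 3.58 and 6.57 TPM in the P input, monosome and polysome libraries and 51.1, 85.9 and 49.5 TPM in those of S. Dpt supplied most of that sum in S, while Pdgfra was at 0.383 and 0.218 TPM and Col1a1 was listed at 0 in P and at 1.001 TPM in S. On the wider fibroblast list, which adds genes such as S100a4 and Postn, 5 of 7 compared genes were higher and none lower. Smooth muscle and pericyte markers were apart from each other. Acta2, smooth muscle actin, had 5.97, 2.62 and 10.2 TPM in the input, monosome and polysome libraries of P and 603, 732 and 1194 TPM in those of S, with no overlap, whereas Myh11 was at 0 in both input libraries, and the 3 markers Myh11, Cnn1 and Des added up to 0.192 TPM in P and 0.637 TPM in S. Of the leukocyte list 5 genes were found, with a summed level of 74.2 TPM in P and 6.75 TPM in S: Cd68 (at 0 in S input) and Cd14 (8.61 and 0.849 TPM) were lower and S100a8 (0.940 and 5.63 TPM) higher. Of 4 adipocyte genes compared Lipe (0.835 and 3.41 TPM) and Cebpa (2.35 and 3.35 TPM) were higher, Fabp4 was lower, at 29.1 TPM in P input against 0 in S input, and Pnpla2 (0.33) lay within 2-fold. The keratinocyte genes Krt10 (-0.52) and Sfn (0.97) lay within 2-fold, and the endothelial marker Cdh5 had 0.990 TPM in P and 0 TPM in S. Genes of these last 4 lists that are not named averaged less than 1 TPM or were not analysed here. In bulk RNA a change in the share of cells of one kind and a change in RNA per cell cannot be told apart, and the part of other cells in the results below was not tested.

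The gene lists differed widely in how their members were distributed. In the plot of 21 lists the medians run from -2.39 for serine, one-carbon and polyamine enzymes to 3.24 for collagens, with lysosomal, respiratory and lipid oxidation genes on the higher side and nuclear machinery on the lower side.

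**Figure D1:**
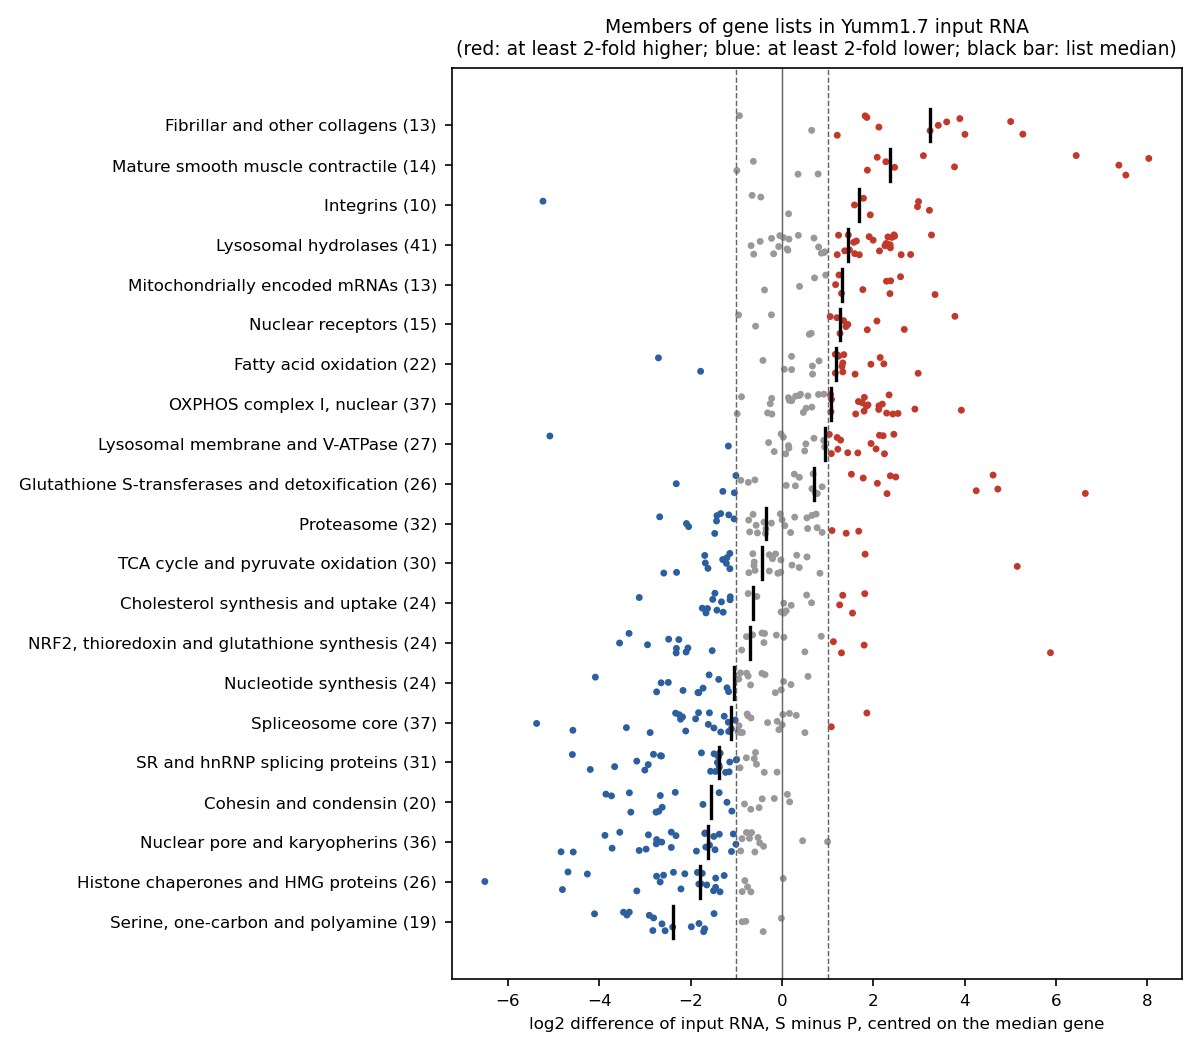
Each point is 1 gene; the x axis is the log2 difference of input RNA, S minus P, centred on the median gene, and the number after each list name is its count of genes compared. Red and blue points lie beyond 2-fold and the black bar is the list median; nuclear pore, HMG protein and splicing lists lie mostly left of 0, collagens, contractile genes and lysosomal hydrolases mostly right of it.

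Of 14 smooth muscle contractile genes 10 were higher and none lower, the same 10 in all 3 library pairs, with a median of 2.37. Myl9, the regulatory light chain of non-muscle and smooth muscle myosin, had 0.103, 0.387 and 0.448 TPM in the input, monosome and polysome libraries of P and 49.03, 39.2 and 38.1 TPM in those of S. The 3 S values lay above the 3 P values without overlap. Hspb6, a small heat shock protein of muscle, had 19.5 TPM in P and 90.5 TPM in S, Flna, an actin crosslinker, 77.8 TPM in P and 226 TPM in S, and Lmod1, an actin nucleator of smooth muscle, 0.0415 TPM in P and 6.46 TPM in S. Smtn (-0.99) and Cald1 (-0.63), which also bind actin filaments in smooth muscle, were below the median gene but not beyond 2-fold, and Myh11, the smooth muscle myosin heavy chain, was at 0. In the general actin list 3 of 21 genes were higher and 7 lower: the monomer binding profilin Pfn1 had 2546 TPM in P and 374.6 TPM in S, the Arp2/3 subunit Arpc2 had 94.4 TPM in P and 8.69 TPM in S and the formin Diaph3 had 15.7 TPM in P and 0.152 TPM in S.

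Other cytoskeletal families were mixed by isotype. Among tubulins, Tubb6 had 748 TPM in P and 79.5 TPM in S, while Tuba1a had 557 TPM in P and 1253 TPM in S and Tubb2a 38.04 TPM in P and 93.4 TPM in S. Neurofilament genes, which belong to neurons but are read in this line, were among the lowest: Nefl had 95.6, 80.9 and 200.4 TPM in the input, monosome and polysome libraries of P and 0.717, 7.07 and 2.05 TPM in those of S, and Nefm stood at 73.4 TPM in P input against 0 in S input, with 7.07 and 1.25 TPM in S monosomes and polysomes. Nes, the intermediate filament of neural progenitors, had 25.3 TPM in P and 59.1 TPM in S. Of the nuclear lamins, Lmnb1 had 28.4 TPM in P and 0.580 TPM in S and Lmna 613 TPM in P and 711 TPM in S.

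Collagens formed the list with the highest median among those of at least 10 genes. Higher were 11 of 13 and none was lower, and the 11 held in all 3 library pairs. Col5a2, a fibril-regulating chain, had 6.40 TPM in P and 35.6 TPM in S, Col8a1, a short-chain network collagen, had 0.183 TPM in P and 18.9 TPM in S, and the basement membrane chains Col4a1 and Col4a2 had 32.96 TPM in P and 40.05 TPM in S, and 12.1 TPM in P and 23.9 TPM in S. Proteins that modify collagen differed less in input, with 6 of 15 higher, 1 lower and a median of 0.84 (negative as deposited). In the monosome pair 14 of the 15 were higher and none lower, with a median of 1.84, against 2.46 for collagens there. Pcolce, which speeds removal of the procollagen C-terminal peptide, had the largest difference of the list, with 484, 64.1 and 554 TPM in the input, monosome and polysome libraries of P and 2873, 1555 and 3873 TPM in those of S. Serpinh1, the collagen chaperone, had 814 TPM in P and 434 TPM in S, close to the median gene.

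Basement membrane and adhesion genes were mixed. Lamb2, the laminin beta 2 chain, had 5.58, 0.614 and 4.92 TPM in the input, monosome and polysome libraries of P and 210.1, 123 and 203 TPM in those of S, which separates all S from all P libraries. Lama5 had 30.2 TPM in P and 146 TPM in S and Hspg2, perlecan, 32.97 TPM in P and 115 TPM in S, whereas the gamma 1 chain Lamc1 had 106 TPM in P and 17.1 TPM in S and was higher, not lower, in the S monosome library (1.54). Integrins, the receptors of these matrices, were higher for 6 of 10, with the largest differences in Itga8 (0.103 and 4.40 TPM), Itgb5 (10.8 and 48.1 TPM) and Itga7 (4.11 and 19.9 TPM), with P given first. Itgb7, which pairs with alpha chains of lymphocytes, stood at 70.9 TPM in P input against 0 in S input, but at 7.62 and 3.68 TPM in the P and S monosome libraries. Among proteoglycans Gpc4, a glypican, had 8.35 TPM in P and 97.96 TPM in S, and Sdc4, a syndecan, 191 TPM in P and 60.1 TPM in S.

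Elastic fibre and matricellular genes were higher for 10 of 15 with 1 lower. Efemp2, fibulin 4, had 112 TPM in P and 564 TPM in S, Thbs1, thrombospondin 1, 0.737 TPM in P and 18.5 TPM in S and Fbln5, fibulin 5, 0.180 TPM in P and 8.08 TPM in S. Spp1, osteopontin, was the lower member with 893, 535 and 1722 TPM in the input, monosome and polysome libraries of P and 127, 215 and 130.4 TPM in those of S. Proteases and their inhibitors were mixed: 9 of 17 proteases were higher and 5 lower, and of 11 inhibitors 7 were higher and 4 lower. The membrane collagenase Mmp14 had 116 TPM in P and 366 TPM in S, Adamts1, an aggrecan and versican cleaving enzyme, 2.31 TPM in P and 30.05 TPM in S, and Mmp11 2.88 TPM in P and 23.7 TPM in S, while Plau, urokinase, had 122 TPM in P and 5.35 TPM in S. Of the tissue inhibitors of metalloproteases, Timp1 had 286 TPM in P and 22.1 TPM in S and Timp2 140.5 TPM in P and 369 TPM in S. Cst3, cystatin C, an inhibitor of lysosomal cysteine proteases, had 612, 213 and 1005 TPM in the input, monosome and polysome libraries of P and 2173, 1246 and 4437 TPM in those of S, and Serpinf1, the antiangiogenic PEDF, had 73.9 TPM in P and 427 TPM in S.

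**Figure D2:**
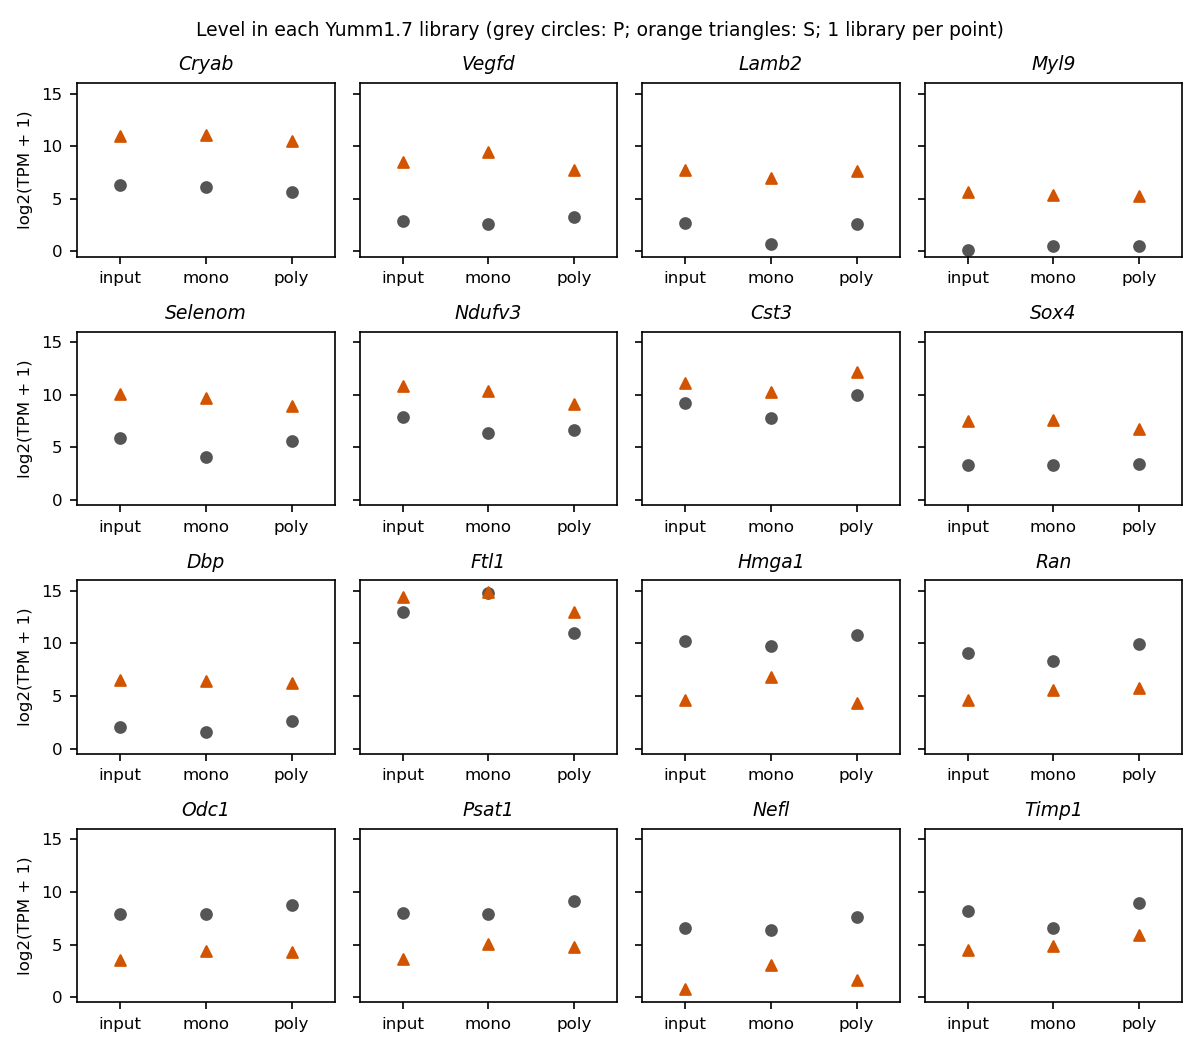
The y axis is log2(TPM + 1) as deposited, for 16 genes, and the x axis the input, monosome (mono) and polysome (poly) library; grey circles are P, orange triangles are S, and every point is 1 library. Cryab, Vegfd, Lamb2, Myl9, Selenom, Ndufv3, Cst3, Sox4 and Dbp have every S point above every P point, Hmga1, Ran, Odc1, Psat1, Nefl and Timp1 every S point below, and Ftl1 overlaps.

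Across all families, the 40 highest genes averaging 10 TPM or more had differences of 4.87 to 8.24, and all 40 were higher in the monosome and polysome pairs too. They included secreted and surface proteins. Vegfd, a ligand of the lymphatic receptor VEGFR3, had 6.39, 5.12 and 8.39 TPM in the input, monosome and polysome libraries of P and 361, 703 and 218 TPM in those of S. Podxl2, a sialomucin of the cell surface, had 1.49 TPM in P and 117 TPM in S, Cd248, endosialin of stromal cells, 1.37 TPM in P and 74.5 TPM in S, and Cd59a, which blocks the membrane attack complex of complement, 1.17 TPM in P and 73.4 TPM in S. Clu, the extracellular chaperone clusterin, had 5.25 TPM in P and 97.4 TPM in S, and Ptgds, which makes prostaglandin D2, 0.184 TPM in P and 27.1 TPM in S. Rn7sk and Rn7s1, small noncoding RNAs without a natural poly(A) tail, which poly-T beads do not select, were also among the 40, at 3.56 TPM in P and 88.97 TPM in S, and at 3.58 TPM in P and 69.8 TPM in S. Hist2h2aa1, a histone gene with near-identical copies, had 25.5 TPM in P and 867 TPM in S, and its assignment among copies is uncertain.

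The 40 lowest genes outside the cell cycle and MAPK lists had differences of at least 4.23 in size, and 34 were lower in both other pairs. Of these 40, 21 were listed at 0 in S input and all 21 were above 0 in another S library. Uchl3, a ubiquitin hydrolase, had 92.1 TPM in P input, 0 in S input, and 9.69 and 10.3 TPM in S monosomes and polysomes. Upp1, uridine phosphorylase, had 55.3 TPM in P and 0.383 TPM in S, Prkg2, the membrane cGMP-dependent kinase, 73.9 TPM in P and 0.659 TPM in S, and Ube2e1, a ubiquitin conjugating enzyme, 76.1 TPM in P and 0.597 TPM in S. Several were division genes that the lists had not held, including Racgap1 (52.7 and 0.472 TPM) and Cdkn3 (73.3 and 0.333 TPM). Prl2c2 and Prl2c3, proliferins with near-identical copies, were at 70.7 and 129.6 TPM in P and at 0 in S input, and reads may be shared between them.

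Lysosomal enzymes had members beyond 2-fold on 1 side only. Of 41 hydrolases 24 were higher and none lower, 17 of them in all 3 library pairs, with a median of 1.45. Gm2a, the GM2 activator, had 7.40, 7.49 and 6.40 TPM in the input, monosome and polysome libraries of P and 41.4, 46.9 and 18.7 TPM in those of S. Hexa, a subunit of beta-hexosaminidase, had 281 TPM in P and 731 TPM in S, Naglu, a heparan sulfate degrading enzyme, 30.7 TPM in P and 90.4 TPM in S, and Ctsa, protective protein cathepsin A, 136 TPM in P and 369 TPM in S. Enzymes near the median gene included Ctsl (0.13), Asah1 (0.11) and Ppt1 (0.03). Among lysosomal membrane genes 13 of 27 were higher and 2 lower. When the proton pump was divided after its values were seen, 4 of 5 membrane sector (V0) genes and 2 of 8 catalytic sector (V1) genes passed 2-fold. Cd68, a lysosomal glycoprotein used as a macrophage marker, had 63.8, 32.4 and 75.9 TPM in the input, monosome and polysome libraries of P and 0, 7.10 and 4.95 TPM in those of S.

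Autophagy genes did not follow as 1 family. Higher were 11 of 29, lower 4, and the median of 0.19 was negative as deposited. Tfeb, a transcription factor for lysosomal genes, had 1.56 TPM in P and 12.9 TPM in S, its relative Tfe3 27.7 TPM in P and 16.2 TPM in S. Map1lc3a, an LC3 protein of the autophagosome membrane, had 78.2 TPM in P and 409 TPM in S, and Ulk1, the initiating kinase, 3.76 TPM in P and 9.53 TPM in S. Wipi1 (20.4 and 1.84 TPM) and Atg5 (13.3 and 1.27 TPM) lay on the other side. Atg9a, the membrane-spanning autophagy protein, had 1.35, 1.88 and 13.1 TPM in the input, monosome and polysome libraries of P and 8.73, 0.104 and 0.988 TPM in those of S, so its higher input level was opposite to both fractions.

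Of 74 respiratory chain and ATP synthase genes encoded in the nucleus, 33 were higher and 3 lower. Of 37 complex I genes 19 were higher and none lower, 18 in all 3 library pairs, with a median of 1.06. Ndufv3 had 228, 82.7 and 99.5 TPM in the input, monosome and polysome libraries of P and 1821, 1344 and 557 TPM in those of S, and Ndufa13 had 249 TPM in P and 981 TPM in S. Divided after the values were seen, 17 of 30 accessory genes and 2 of 7 catalytic core genes passed 2-fold; Ndufs1, the largest core subunit, was at 40.9 TPM in P and 10.1 TPM in S with a difference of -0.98. For complexes III and IV the count was 8 higher and 2 lower of 22, and for ATP synthase 6 higher and 1 lower of 15. The medians of those lists, 0.62 and 0.50, are negative as deposited. Uqcr11 had 675 TPM in P and 2060.0 TPM in S and Atp5e 573 TPM in P and 2397 TPM in S, against Cycs, cytochrome c, with 252 TPM in P and 44.6 TPM in S and Atp5f1 with 344 TPM in P and 84.01 TPM in S.

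The mitochondrial genome's own mRNAs differed between library types. In input 9 of 13 were higher and none lower, with a median of 1.30, against medians of 0.05 in monosomes and 5.00 in polysomes. Only 5 passed in all 3 pairs. For mt-Co3, a cytochrome oxidase subunit, the libraries gave 7634, 16052 and 1415 TPM in the input, monosome and polysome libraries of P and 20746, 4310.4 and 26622 TPM in those of S, and for mt-Nd3 they gave 1409.8, 1577 and 148 TPM in the input, monosome and polysome libraries of P and 7519.6, 7243 and 3801 TPM in those of S. Mitochondrial ribosomal proteins of the large subunit were spread around the median gene, with 10 higher and 5 lower of 49. Import and chaperone genes lay lower for 10 of 25 and higher for 2, the chaperonin Hspd1 having 311 TPM in P and 25.9 TPM in S and Timm13 369.9 TPM in P and 775 TPM in S.

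Fuel pathways divided. Fatty acid oxidation genes were higher for 13 of 22, lower for 2, with a median of 1.19. Acaa1a, the peroxisomal thiolase, had 39.3, 7.69 and 56.7 TPM in the input, monosome and polysome libraries of P and 165, 120.3 and 197 TPM in those of S. Cpt1a, which commits fatty acids to mitochondria, had 4.01 TPM in P and 9.10 TPM in S. The subunits of the electron transfer flavoprotein went apart: Etfb had 289.8 TPM in P and 712 TPM in S and Etfa 64.1 TPM in P and 4.22 TPM in S, and Etfdh, which accepts their electrons, 6.78 TPM in P and 0.183 TPM in S. In the tricarboxylic acid cycle and pyruvate oxidation list 10 of 30 were lower, including Dlat (32.8 and 1.94 TPM) and Dld (47.9 and 4.16 TPM) of the pyruvate dehydrogenase complex, and 2 higher. The higher 2 were Pcx, pyruvate carboxylase, with 3.01 TPM in P and 6.40 TPM in S, and Pdk2, a kinase that inhibits pyruvate dehydrogenase, with 0.908, 0.618 and 1.32 TPM in the input, monosome and polysome libraries of P and 34.4, 41.7 and 18.7 TPM in those of S. Glycolysis held 7 higher and 5 lower of 19, from the lactate and pyruvate carrier Slc16a1 (47.98 and 4.01 TPM) to Ldhb (6.65 and 24.9 TPM).

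Biosynthetic pathways lay on the lower side. In serine, one-carbon and polyamine metabolism 15 of 19 were lower and none higher, 10 of them in all 3 pairs. Odc1, the rate-limiting enzyme of polyamine synthesis, had 244, 236 and 442 TPM in the input, monosome and polysome libraries of P and 10.6, 19.6 and 19.1 TPM in those of S. Psat1 of serine synthesis had 254, 239 and 577 TPM in the input, monosome and polysome libraries of P and 11.7, 32.6 and 26.9 TPM in those of S, and Mthfd2 of the mitochondrial folate cycle had 173 TPM in P and 7.96 TPM in S. For Odc1 and Psat1 every S library was below every P library. Nucleotide synthesis had 12 of 24 lower and none higher, among them the purine enzymes Atic (110.4 and 7.69 TPM) and Ppat (18.5 and 2.07 TPM) and the pyrimidine enzyme Cad (19.3 and 0.691 TPM). The pentose phosphate and NADPH list had 6 of 13 lower, and its 1 higher member, the lactonase Pgls, had 200.2 TPM in P and 850.4 TPM in S.

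Lipid synthesis was mixed. Of 24 cholesterol genes 11 were lower and 4 higher: Msmo1, a sterol demethylating oxidase, had 62.3 TPM in P and 8.88 TPM in S and Idi1, which isomerises isopentenyl diphosphate, 13.2 TPM in P and 1.39 TPM in S. The 4 higher ones were Mvd, Pmvk, Ebp and Tm7sf2, the last with 7.01 TPM in P and 13.7 TPM in S. Fatty acid synthesis had 6 lower and 4 higher of 18, with Acsl4, which activates arachidonate, at 19.2 TPM in P and 0.559 TPM in S, and Fads3 at 33.3 TPM in P and 83.9 TPM in S. For lipoproteins and sterol export, Pltp, the phospholipid transfer protein, had 3.71 TPM in P and 31.5 TPM in S, and Npc1, the lysosomal sterol exporter, 25.3 TPM in P and 1.99 TPM in S.

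Redox genes were divided. In the NRF2, thioredoxin and glutathione synthesis list 10 of 24 were lower and 4 higher. Nfe2l2, which encodes NRF2 itself, had 59.7, 90.1 and 112 TPM in the input, monosome and polysome libraries of P and 1.696, 9.44 and 5.05 TPM in those of S. Gsr, glutathione reductase, had 45.8 TPM in P and 1.40 TPM in S, and Gclc, the catalytic subunit of glutathione synthesis, stood at 13.7 TPM in P input against 0 in S input. The higher members were superoxide dismutases and peroxiredoxins: Sod3, the extracellular enzyme, had 0.918 TPM in P and 57.9 TPM in S, Prdx2 334 TPM in P and 609 TPM in S, Prdx5 408 TPM in P and 527 TPM in S and Sod1 844 TPM in P and 963 TPM in S. Their relatives were not all higher: Prdx1, with 704 TPM in P and 87.4 TPM in S, was lower, and Prdx6 (-0.78) and Sod2 (0.04) lay within 2-fold. The Prdx1 difference was within 2-fold in the monosome (-0.31) and polysome (-0.10) pairs. Glutathione S-transferases and other detoxification genes were higher for 10 of 26, all 10 in every library pair, and lower for 4. Gstt1 had 2.58 TPM in P and 48.4 TPM in S, the carbonyl reductase Cbr2 11.3 TPM in P and 121 TPM in S, and Gstm1 117 TPM in P and 346 TPM in S, the last being one of several near-identical mu class genes.

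Selenoproteins were higher for 8 of 16 and lower for 4. Selenom, of the endoplasmic reticulum, had 59.3, 15.4 and 47.6 TPM in the input, monosome and polysome libraries of P and 1060.5, 819.7 and 477 TPM in those of S, with no overlap between states. Gpx4, which removes lipid peroxides, had 1407 TPM in P and 2286 TPM in S, and Sephs2, which makes the selenium donor, 36.2 TPM in P and 4.50 TPM in S. The small heat shock proteins Cryab and Hspb2, which lie head to head on the chromosome, were both high: Cryab, alpha B crystallin, had 76.2, 68.7 and 49.1 TPM in the input, monosome and polysome libraries of P and 2016, 2191 and 1438 TPM in those of S, and Hspb2 had 6.67 TPM in P and 129 TPM in S. Without stated strand counting, reads of such neighbours may be shared. Of 14 iron and metallothionein genes 3 were higher and 2 lower, with the ceruloplasmin gene Cp at 2.99 TPM in P and 17.1 TPM in S and the transferrin receptor Tfrc at 26.8 TPM in P and 3.27 TPM in S.

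**Figure D3:**
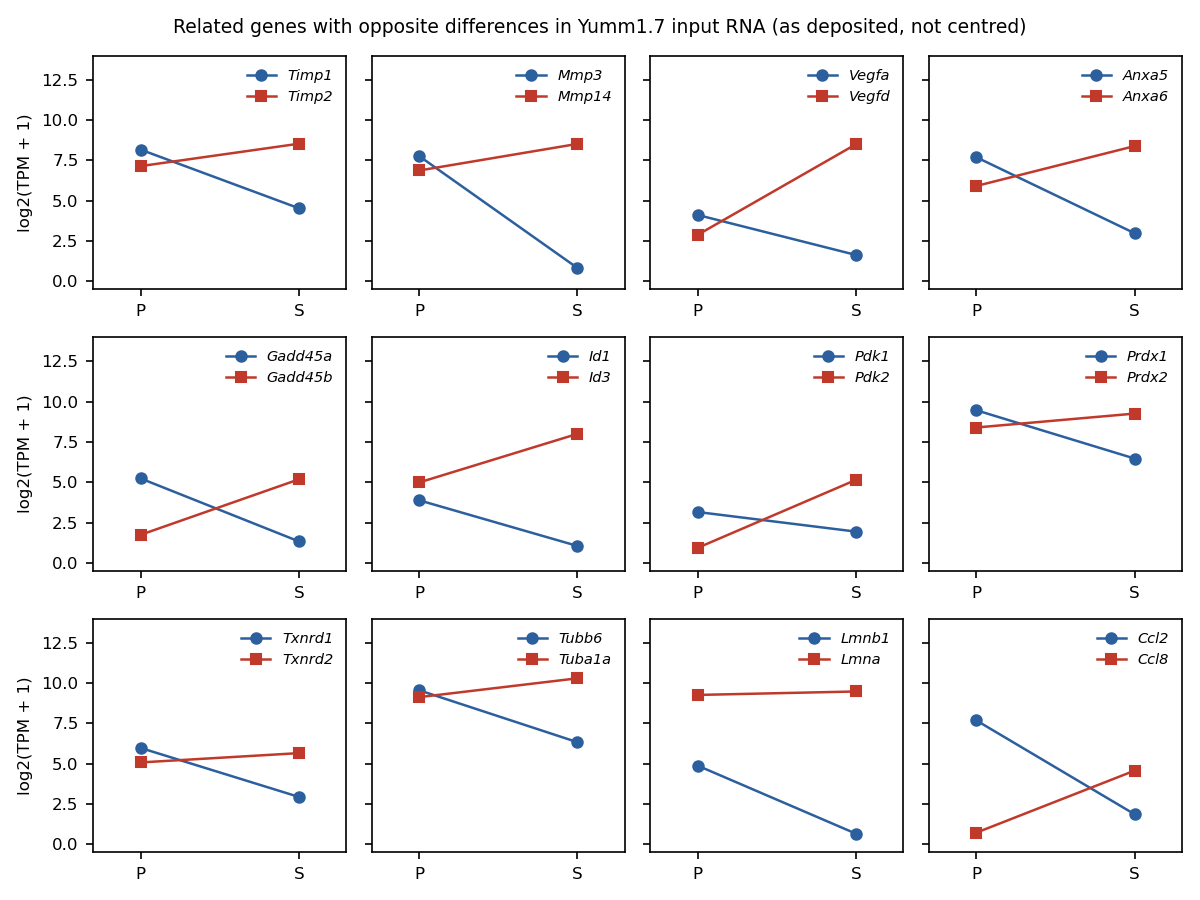
The y axis is log2(TPM + 1) as deposited in the P and S input libraries, for 12 pairs of related genes chosen after their values were seen; lines join the 2 libraries, 1 library per point. In each panel the blue gene is lower in S and the red gene higher in S.

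Some related genes stood on opposite sides, as the plot of 12 gene pairs shows. Anxa5, an annexin that binds phosphatidylserine, had 206 TPM in P and 6.92 TPM in S and Anxa6 59.2 TPM in P and 333 TPM in S. Vegfa had 16.3 TPM in P and 2.11 TPM in S against the Vegfd values above. Gadd45a had 36.5 TPM in P and 1.51 TPM in S, while Gadd45b had 2.34 TPM in P and 35.2 TPM in S and Gadd45g 69.5 TPM in P and 435 TPM in S. Id1 had 13.7 TPM in P and 1.06 TPM in S and Id3, another inhibitor of bHLH factors, 30.7 TPM in P and 254 TPM in S, and Ccl2, a monocyte chemokine, had 205 TPM in P and 2.65 TPM in S against 0.650 TPM in P and 22.7 TPM in S for Ccl8. These pairs were picked for their contrast and say nothing of how often relatives differ.

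RNA handling in the nucleus was lower. Of 31 SR and hnRNP splicing proteins 23 were lower and none higher, 11 of them in all 3 pairs, with a median of -1.38. Hnrnpa2b1, an RNA transport and splicing factor, had 936, 382 and 2236 TPM in the input, monosome and polysome libraries of P and 68.7, 97.4 and 89.7 TPM in those of S, and Srsf2 had 222 TPM in P and 17.4 TPM in S. For core spliceosome genes 20 of 37 were lower and 2 higher in input, but only 4 were lower in all 3 pairs. The list's median was -1.11 in input, 0.04 in monosomes and -0.28 in polysomes. Snrnp70, the U1 protein, had 129, 28.6 and 292 TPM in the input, monosome and polysome libraries of P and 12.6, 29.3 and 108 TPM in those of S. Snrpd2, a Sm core protein, was 1 of the 2 higher members with 287 TPM in P and 545 TPM in S, and the other was Prpf6 with 42.1 TPM in P and 46.7 TPM in S.

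Transport between nucleus and cytoplasm lay lower still. Of 36 genes 25 were lower and none higher, 17 in all 3 pairs, with a median of -1.63. Ran, the GTPase that gives transport its direction, had 543, 318 and 979 TPM in the input, monosome and polysome libraries of P and 23.2, 46.3 and 53.6 TPM in those of S. Kpna2, an importin alpha, had 137, 44.8 and 259 TPM in the input, monosome and polysome libraries of P and 1.52, 9.29 and 5.62 TPM in those of S. Both were lower in each S library than in any P library. Divided after the values were seen, 7 of 9 importins and exportins and 11 of 18 nucleoporins named Nup passed 2-fold, and the nucleoporins Nup133 (-0.67), Nup98 (-0.71) and Nup188 (-0.59) did not.

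Chromatin families differed. Histone chaperones and HMG proteins were lower for 21 of 26 and higher for none, 14 in all 3 pairs. Hmga1, an architectural protein abundant in tumours, had 1233, 839 and 1795 TPM in the input, monosome and polysome libraries of P and 24.1, 109 and 19.6 TPM in those of S, and its relative Hmga2 had 62.3 TPM in P and 0.182 TPM in S. The variant and linker histone list did not share this, with 4 higher and 3 lower of 15 and a median of 0.57 (negative as deposited). H2afz, the variant H2A.Z, was the lowest of the list. It had 557, 417 and 1369.6 TPM in P input, monosome and polysome libraries, and 6.78, 28.2 and 24.7 TPM in those of S. The highest was Hist1h2bc, a histone H2B gene that the list also holds and not a variant or linker gene. Hist1h2bc had 46.2 TPM in P and 248 TPM in S. Cohesin and condensin genes were lower for 13 of 20, DNA methylation and Polycomb genes for 12 of 23, with Dnmt1, the maintenance methyltransferase, at 32.97 TPM in P and 1.12 TPM in S and Ezh2, the H3K27 methyltransferase, at 18.9 TPM in P and 0.787 TPM in S. DNA repair genes were lower for 17 of 37 and higher for 2, namely the excision repair genes Ercc2 and Xpa.

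Other chromatin regulators were not on 1 side. Remodellers of the SWI/SNF, INO80 and CHD classes held 10 higher and 6 lower of 28. Chd3, a NuRD remodeller, had 26.8, 12.3 and 33.3 TPM in the input, monosome and polysome libraries of P and 196, 106 and 87.9 TPM in those of S, and Smarcd3, a SWI/SNF subunit, 13.4 TPM in P and 86.1 TPM in S, whereas Hells, a remodeller of dividing cells, had 9.71 TPM in P and 0.278 TPM in S. Kdm4b, an H3K9 demethylase, had 3.10 TPM in P and 33.3 TPM in S and its relative Kdm4a 19.3 TPM in P and 4.02 TPM in S. Histone deacetylases of class I, Hdac1 (52.1 and 7.70 TPM) and Hdac2 (121 and 28.99 TPM), contrasted with class IIa Hdac4 (2.67 and 5.04 TPM). Carm1, an arginine methyltransferase, had 42.3, 34.4 and 50.3 TPM in the input, monosome and polysome libraries of P and 50.7, 5.02 and 2.53 TPM in those of S, so that its fractions ran against input.

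Nuclear receptors, transcription factors that bind small lipophilic ligands, were higher for 10 of 15 and lower for none, although only 4 passed in all 3 pairs. Thra, a thyroid hormone receptor, had 10.9, 5.28 and 12.6 TPM in the input, monosome and polysome libraries of P and 38.7, 52.2 and 29.3 TPM in those of S, and Nr3c1, the glucocorticoid receptor, 12.7 TPM in P and 2.70 TPM in S, a difference of -0.95. Maf, a bZIP factor, had 0.303 TPM in P and 20.6 TPM in S, and Sox4, of the SoxC group, 9.31, 9.06 and 9.57 TPM in the input, monosome and polysome libraries of P and 179, 195 and 107 TPM in those of S. Of 13 clock genes 4 were higher and 2 lower, against 23.1% and 22.3% of all genes compared. Dbp, an output activator, had 3.24, 1.98 and 5.29 TPM in P input, monosomes and polysomes and 91.3, 85.4 and 75.1 TPM in those of S. Tef had 4.43 TPM in P and 15.9 TPM in S. The 2 lower genes were Arntl and Cry1, a core activator and a core repressor, at 6.37 and 6.10 TPM in P input against 0 in S input. The repressor Cry2 was higher in input, with 1.56 TPM in P and 3.32 TPM in S. Clock (-0.23) and Per1 (0.96) lay within 2-fold.

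Genes tied to cell cycle exit were mixed. Of 32 FOXO and quiescence genes 12 were higher and 7 lower, with a median of 0.25 (negative as deposited). Mxd4, an antagonist of MYC at its partner MAX, had 5.39 TPM in P and 77.4 TPM in S, Ypel3 31.8 TPM in P and 156 TPM in S and Gas1, a growth arrest protein, 8.15 TPM in P and 24.8 TPM in S. The cyclin-dependent kinase inhibitors Cdkn1a and Cdkn1b had differences of -0.27 and 0.41, within 2-fold of the median gene. p53 targets had 5 lower and 2 higher of 18, Mdm2 having 103 TPM in P and 11.2 TPM in S. In the BCL2 family 4 of 15 were higher and none lower, and those were the BH3-only genes Bmf (0.119 and 5.69 TPM), Bad (62.2 and 118 TPM) and Bbc3 (11.4 and 15.8 TPM) and the effector Bok (49.5 and 68.6 TPM). Of all genes compared 23.1% were higher, and of these 4 only Bmf was higher in all 3 library pairs. The survival members Mcl1 (0.59), Bcl2 (0.42) and Bcl2l1 (0.44) lay within 2-fold. So did the BH3-only genes Bcl2l11 (0.78) and Bid (-0.64) and the effectors Bax (0.44) and Bak1 (0.20).

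Signalling lists were mostly mixed. Semaphorin, plexin and ephrin genes were higher for 11 of 22 and lower for 1. Sema3f, a secreted semaphorin, had 5.66, 1.92 and 10.8 TPM in the input, monosome and polysome libraries of P and 101, 60.2 and 27.9 TPM in those of S, Plxnb2 had 178 TPM in P and 841 TPM in S and Ephb3 2.37 TPM in P and 22.4 TPM in S. In the insulin-like growth factor list Igfbp7 had 13.05 TPM in P and 141 TPM in S, Igfbp6 101 TPM in P and 581 TPM in S and the receptor Igf2r 25.2 TPM in P and 3.62 TPM in S. TGF-beta ligands and receptors were higher for 5 of 13, none of them in all 3 pairs. Among targets Pmepa1 had 0.152 TPM in P and 16.7 TPM in S and Smad4, the shared mediator, 11.3 TPM in P and 1.11 TPM in S. Hedgehog genes were higher for 5 of 7 at low levels, with Ptch1 at 1.36 TPM in P and 2.17 TPM in S.

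Wnt receptors included Fzd2 at 2.02 TPM in P and 23.9 TPM in S. Of receptor tyrosine kinases 5 of 11 were higher and 3 lower: Pdgfrb had 4.29 TPM in P and 11.1 TPM in S, Met 11.8 TPM in P and 1.61 TPM in S and Mertk 12.7 TPM in P and 1.83 TPM in S. Growth factor ligands gave 4 lower and 2 higher of 16, where 22.3% lower and 23.1% higher is the share among all genes compared. The 4 lower ones were Areg (16.3 and 0.788 TPM), Ereg (14.98 and 1.16 TPM), Kitl (30.9 and 3.05 TPM) and Vegfa. Of these, 2 were lower in all 3 library pairs. In the PI3K list 7 of 19 were higher and 2 lower, and the higher ones included negative regulators: Pik3ip1, which inhibits the kinase, had 0.334 TPM in P and 11.9 TPM in S and Tsc2, which restrains mTORC1, 14.8 TPM in P and 45.7 TPM in S. Sgk1, a kinase downstream of PI3K, had 19.9 TPM in P and 0.390 TPM in S.

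Complement and MHC class II genes, most of them complement proteins and regulators, were higher for 7 of 8, among them C1s1 (0.411 and 15.7 TPM) and C1ra (1.65 and 18.4 TPM), the proteases of the classical pathway, and lower for C1qbp. MHC class I and peptide loading genes gave 5 higher and 5 lower of 19. H2-K1 had 377 TPM in P and 86.9 TPM in S, H2-D1 had 1028 TPM in P and 562 TPM in S and the immunoproteasome subunit Psmb10 79.5 TPM in P and 231 TPM in S. Chemokines and cytokines gave 5 lower and 3 higher of 12, with Ccl5 at 236 TPM in P and 25.3 TPM in S.

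Protein quality control was mixed. In the proteasome list 9 of 32 were lower and 3 higher, with a median of -0.36 in input and 0.70 in polysomes. Among all genes compared 22.3% were lower and 23.1% higher in input. Divided after the values were seen, 4 of 7 alpha ring genes and none of 7 beta ring genes were lower in input. Psma2 had 66.04 TPM in P and 4.48 TPM in S, and Psmb5 576 TPM in P and 505 TPM in S. Of the 4 alpha ring genes, only Psma2 was lower in all 3 library pairs. Endoplasmic reticulum chaperone and unfolded protein response genes were lower for 8 of 27 and higher for 3. Pdia6 was lower, with 145 TPM in P and 15.6 TPM in S. Ddit3, the stress factor CHOP, was higher, with 212 TPM in P and 701 TPM in S. The response genes Trib3 (83.4 and 16.1 TPM) and Chac1 (47.7 and 1.53 TPM) were among the lower ones. Atf4 (510 and 133 TPM) lay just within 2-fold at -0.99. Sec13, a coat protein of vesicles and the nuclear pore, had 126 TPM in P and 2.58 TPM in S, and Sec62, a translocon protein that also serves in endoplasmic reticulum recovery, 64.2 TPM in P and 321 TPM in S.

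Membrane proteins completed the survey. Ion channels were higher for 9 of 19 and lower for 5, with Trpm4, a calcium-activated cation channel, at 2.80 TPM in P and 30.7 TPM in S, Kcnmb4 at 0.168 TPM in P and 21.3 TPM in S, and Kcnn4, a calcium-activated potassium channel, at 85.6 TPM in P and 6.51 TPM in S. Tetraspanins and caveolar genes gave 7 higher and 2 lower of 19, Cd81 having 286 TPM in P and 986 TPM in S and Cavin2 4.82 TPM in P and 43.3 TPM in S. S100 proteins added S100a4 at 1073 TPM in P and 4488 TPM in S and S100a13 at 52.8 TPM in P and 271 TPM in S.

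The plot of list medians sets input beside the fractions. Of the 91 lists with at least 5 genes, 75 had a median of the same sign in the monosome pair and 80 in the polysome pair. The ribosomal protein list stood near 0 in input (0.06), lower in monosomes (-0.79) and higher in polysomes (1.38).

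**Figure D4:**
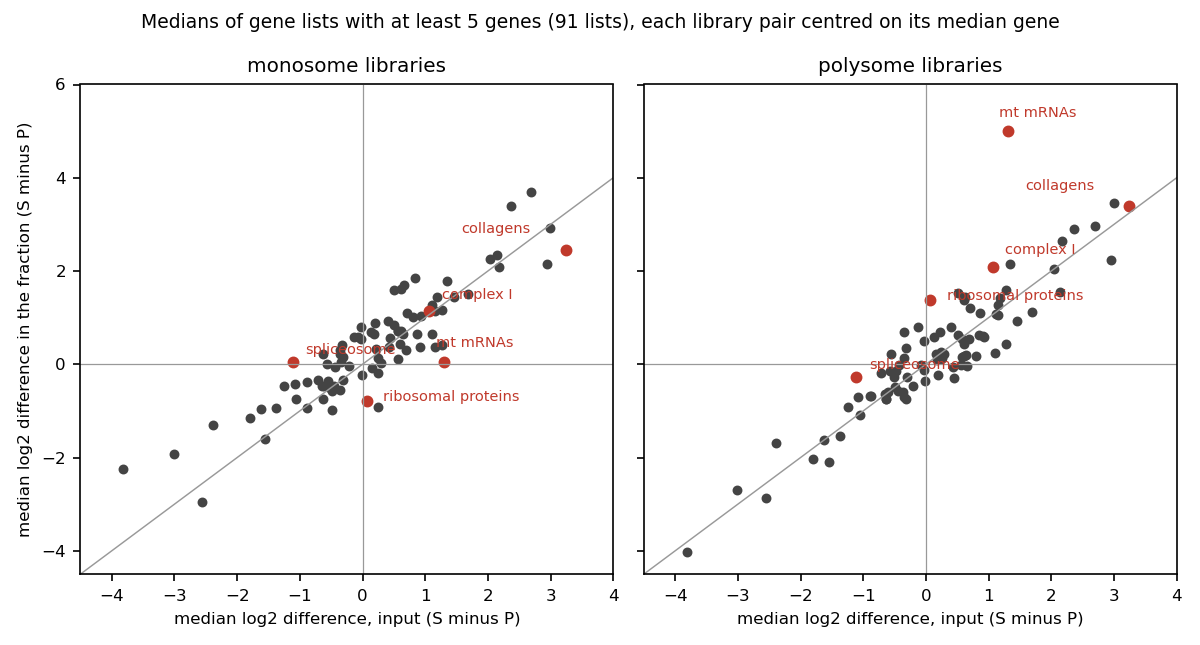
Each point is the median of 1 list with at least 5 genes (91 lists); the x axis is the input difference, S minus P, and the y axis that of the monosome pair (left) or the polysome pair (right), all centred on the median gene, with the diagonal marking equal values. Mitochondrially encoded mRNAs lie at 1.30 in input, 0.05 in monosomes and 5.00 in polysomes, and the spliceosome list at -1.11, 0.04 and -0.28.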

How the data were processed

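The unit is TPM per gene as deposited by the authors in 1 table for each line; builds GRCh38 (hg38) and GRCm38 (mm10) are named in the submitters' processing notes, while no aligner or quantifier is given in the sources used here. The listed values of the 2 Yumm1.7 input libraries add up to 90.9% (P) and 85.6% (S) of a full TPM total, so the table is a part of each library, and read depth is unknown. Columns were matched to samples by name. The labels do not say that the libraries come from separate cultures. Genes averaging 1 TPM or more over the 6 Yumm1.7 libraries were kept, log2(TPM + 1) was subtracted (S minus P), and the median was removed; adding 1 understates differences of low genes. Calls are differences of at least 2-fold, with no test. The 97 gene lists, the cell type markers and the naming rule were chosen with earlier results of these data known. The rule takes, outside 3 lists (G2/M and mitosis, G1/S and replication, MAPK output), the 40 largest differences in each direction among genes averaging 10 TPM or more, up to 6 members of each list by size of difference (averaging 5 TPM or more), the 2 members of highest mean, and a few set genes; others named were chosen after their values were seen. Of those 3 lists, 39 of 40, 33 of 34 and 18 of 19 genes were lower. Alternatives were other pseudocounts, filters, centring and scaling, and the fractions in place of input. Scripts ran in python 3.11.15 with pandas 2.3.3, numpy 2.4.6 and matplotlib 3.10.9, and were tested on simulated data. Some members of the lists are not reported here by name.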

Additional observations from a re-analysis of the deposited data

How the results depend on the processing

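With a pseudocount of 5 TPM in place of 1, 1381 genes were higher, and on the values as deposited, not centred, 938 were higher and 5043 lower; the other settings kept both counts within 1.5 times of 2422 and 2336. The fractions in place of input turned the sign of some named genes that were beyond 2-fold in input. In the monosome pair these were Atg9a (-1.17), Carm1 (-2.34), Lrch4 (-2.65), mt-Co3 (-1.69), Cgref1 (1.15), Hdac2 (0.95), Id1 (0.064), Kdm4a (1.04), Lamc1 (1.54), S100a8 (-0.22), Snrnp70 (0.24), Tbl3 (1.69), Trex1 (1.51) and Yipf2 (4.72). In the polysome pair they were Atg9a (-1.30), Carm1 (-2.33), Lrch4 (-2.22), Cdkn2a (0.081), Cgref1 (1.13), Snrnp70 (0.10), Tbl3 (1.86), Tpt1 (0.64), Trex1 (1.91) and Yipf2 (3.14); the cause was not tested. Named genes within 2-fold in input also changed sign, of which Cdkn1b (-1.29 in polysomes) went beyond 2-fold. Of 93 lists, 64 moved when values were not centred. No paired analysis was possible because each state has 1 input library, and for the same reason no replicate could be left out. Depth is unknown, so no detection limit can be given for values of 0.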

Other observations

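Further families had counts of another kind. RNA exosome, decay and deadenylation genes were lower for 11 of 32 and higher for 2, none of them higher in all 3 library pairs. Chaperonin and prefoldin genes gave 5 lower and 2 higher of 14, NF-kappaB genes 3 lower and 4 higher of 20, and amino acid transporters 5 lower and 3 higher of 16. Homeobox factors gave 5 higher and 3 lower of 12, and the KLF, MAF, AP-1 and EGR factors 4 higher and 6 lower of 22. Imprinted genes gave 4 higher and 2 lower of 8. In these lists 23.1% higher and 22.3% lower is the share among all genes compared.

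Of the genes beyond 2-fold in input, 7 were beyond 2-fold in the opposite direction in both the monosome and the polysome pair, 3 of them higher in input and 4 lower. They were singled out after their values were seen. Yipf2, a Golgi membrane protein, had 8.77, 3.79 and 9.29 TPM in the input, monosome and polysome libraries of P and 0, 108 and 30.4 TPM in those of S. Trex1, a cytosolic DNA exonuclease, had 16.5, 9.40 and 23.7 TPM in the input, monosome and polysome libraries of P and 0, 24.6 and 31.2 TPM in those of S, and Tbl3 had 44.2, 2.36 and 34.2 TPM in the input, monosome and polysome libraries of P and 10.1, 8.39 and 43.1 TPM in those of S. The other lower gene was Cgref1, at 3.17 TPM in P input against 0 in S input, and at 1.10 and 3.04 TPM in the P and S monosome libraries. Lrch4 had 0.0439, 7.32 and 15.8 TPM in the input, monosome and polysome libraries of P and 1.0004, 0.151 and 0.246 TPM in those of S, and Atg9a and Carm1 are the remaining higher genes. Each pattern rests on 1 library per value.

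The split varied with the mean level, without a steady order. At 100 TPM or more, 31.9% of 1036 genes were 2-fold or more higher and 18.6% lower, with a median of 0.30. Between 20 and 100 TPM 24.8% of 2880 were higher and 26.6% lower, with a median of -0.03. Between 5 and 20 TPM 20.2% of 3718 were higher and 27.2% lower, with a median of -0.18, and between 1 and 5 TPM 21.9% of 2858 were higher and 12.7% lower, with a median of 0.13.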
